A study of Mus musculus with 96 samples.

Results

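The genes described here are 3 FoxO transcription factors, Foxo1, Foxo3 and Foxo4, together with 7 genes linked to quiescence or described as FoxO targets: Ccng2, Sesn1, Sesn3, Pik3ip1, Txnip, Gas1 and Gas6. They were taken from the deposited table by gene symbol, and all 10 were present among its 15895 rows. Their values in both time courses were set against the -1 h and 0 h libraries of the same course. The cells were primary mouse embryonic fibroblasts (MEFs) from CF-1 embryos at embryonic day 13, a mixed population explanted from the embryo and not a cell line. They were kept in starvation medium with 0.5% fetal calf serum (FCS) for 36 h, and FCS was then raised to 20%, which restarts growth in a quiescent culture. Polyadenylated RNA was sequenced in 2 time courses named Cycle 1 (63 libraries, -1 h to 38 h) and Cycle 2 (32 libraries, -1 h to 27 h). The 4 starved libraries, at -1 h and 0 h of each Cycle, shared the starvation medium and served as the reference for all hours after serum.

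FoxO proteins are forkhead transcription factors held in check by growth factors: insulin or serum activates PI3K and Akt, Akt phosphorylates FoxO, and 14-3-3 proteins keep the phosphorylated factor in the cytoplasm. In starved cells FoxO is nuclear and binds a forkhead motif near genes for cell cycle exit, stress resistance and autophagy. Gas1 and Gas6 belong to the growth arrest-specific genes, a class first isolated because their transcripts accumulate in serum-starved fibroblasts. FoxO activity is set largely by protein modification and location, neither of which was measured here.

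Each value is a normalised read count, the number of exon reads of a gene scaled by the authors to a common library total and not divided by gene length, so levels are compared between libraries and not between genes. The depth recovered from the size of 1 read lay between 5067426 and 14500245 reads (median 10832562) in each library. In a bulk culture, fewer cells of a type and less RNA per cell cannot be told apart. Labels do not say whether the Cycles were separate cultures, so p-values measure the spread between these libraries. Among the libraries that stood apart from their neighbouring hours, those at 20 h and 27 h of Cycle 2 were high for several of the 10 genes, and those at 24.5 h and 26 h of Cycle 1 differed from their neighbours over all well measured genes (a median absolute log2 difference of 0.411 and 0.227, over 9112 genes). The window tests were refitted without the libraries at 20 h and 27 h of Cycle 2 and 26 h of Cycle 1. That at 24.5 h of Cycle 1 was not in the main window test, which used hours sampled in both Cycles. Descriptions by library, such as counts of low values and nearest courses, include all of these libraries.

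The forkhead motif gives a view of the sequence near these genes. RefSeq promoter windows (build GRCm38.p6, 250 bases before to 50 bases after the transcription start) were found for 9 of the 10 genes, in 10 windows because Sesn1 has more than one start, and Foxo4 had no entry. The core motif GTAAACA, searched on both strands, was in 2 of the 10 windows, those of Txnip and of one Sesn1 start, and in 3.65% of all 32851 windows. The E-box CACGTG, searched because Txnip is a known target of the glucose-sensing Mlx proteins, was in 0 of the 10 windows and in 7.15% of all windows. Only this exact string was searched, and E-box variants that differ from it were not counted. The windows that held GTAAACA are printed 5′ to 3′ on the gene's strand, with the match in capitals. In Txnip (chr3:96557707-96558006, + strand) the match covered bases 130 to 136 of the window on the gene's own strand, and in Sesn1 (chr10:41810324-41810623, + strand) bases 273 to 279 on the opposite strand, downstream of the start.
Txnip: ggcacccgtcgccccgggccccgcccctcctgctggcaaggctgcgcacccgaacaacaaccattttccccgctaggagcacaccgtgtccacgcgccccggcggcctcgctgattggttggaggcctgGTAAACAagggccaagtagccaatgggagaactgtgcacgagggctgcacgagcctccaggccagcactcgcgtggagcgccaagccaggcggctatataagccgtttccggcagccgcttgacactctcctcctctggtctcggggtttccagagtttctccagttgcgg
Sesn1: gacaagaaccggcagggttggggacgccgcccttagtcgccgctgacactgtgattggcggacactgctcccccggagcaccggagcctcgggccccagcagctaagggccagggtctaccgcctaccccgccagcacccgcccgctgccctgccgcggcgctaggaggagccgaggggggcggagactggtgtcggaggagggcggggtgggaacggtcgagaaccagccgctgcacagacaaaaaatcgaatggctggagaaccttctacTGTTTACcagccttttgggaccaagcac
A match is a string of letters, and factor binding was not measured in these samples.

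Serum lowered most of the 10 genes within hours, and their window means stayed low up to 21-27 h. The last library of Cycle 2, at 27 h, was higher for several of them, with Ccng2 at 451. For the test, the hours after serum were grouped into windows of 1-3 h, 4-8 h, 9-14 h, 15-20 h and 21-27 h, and each was compared with the starved libraries by limma on log2(value + 1) with Cycle as a block. A gene was called when its adjusted p was under 0.05 and its change at least 2-fold. At 1-3 h, 6 of the 10 genes fell (Foxo3, Sesn1, Sesn3, Pik3ip1, Txnip and Gas1), against 11.8% of all genes. At 4-8 h, 8 of 10 fell, with Ccng2 and Gas6 added, against 18.6% of all genes. The count was again 8 of 10 in the windows of 9-14 h, 15-20 h and 21-27 h, where 16.6%, 17.1% and 19% of all genes fell. No member was called as rising in any window, where the share of all genes that rose was 5.3%, 7.64%, 6.96%, 6.8% and 6.59% in the order of the windows. With no fold minimum, 8 members fell at 1-3 h, then 9, then 10 in each later window, and again 0 rose. edgeR on the recovered reads, in which Sesn1 could not be tested, called 5 falls at 1-3 h, 7 in each later window and 0 rises. The median log2 change of the 10 genes was -1.39, -1.94, -1.91, -1.70 and -1.72, beside -0.26, -0.23, -0.14, -0.13 and -0.16 over all genes. Without Cycle 1 the count at 1-3 h was 3 of 10, since Foxo3, Sesn3 and Gas1 were no longer called. The scaling moved the early background, and rescaling by TMM changed the all-gene median at 1-3 h from -0.26 to -0.04 and the calls from 1870 fallen and 843 risen to 1110 and 1144, while the member counts stayed at 6 fallen and 0 risen.

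**Figure D1:**
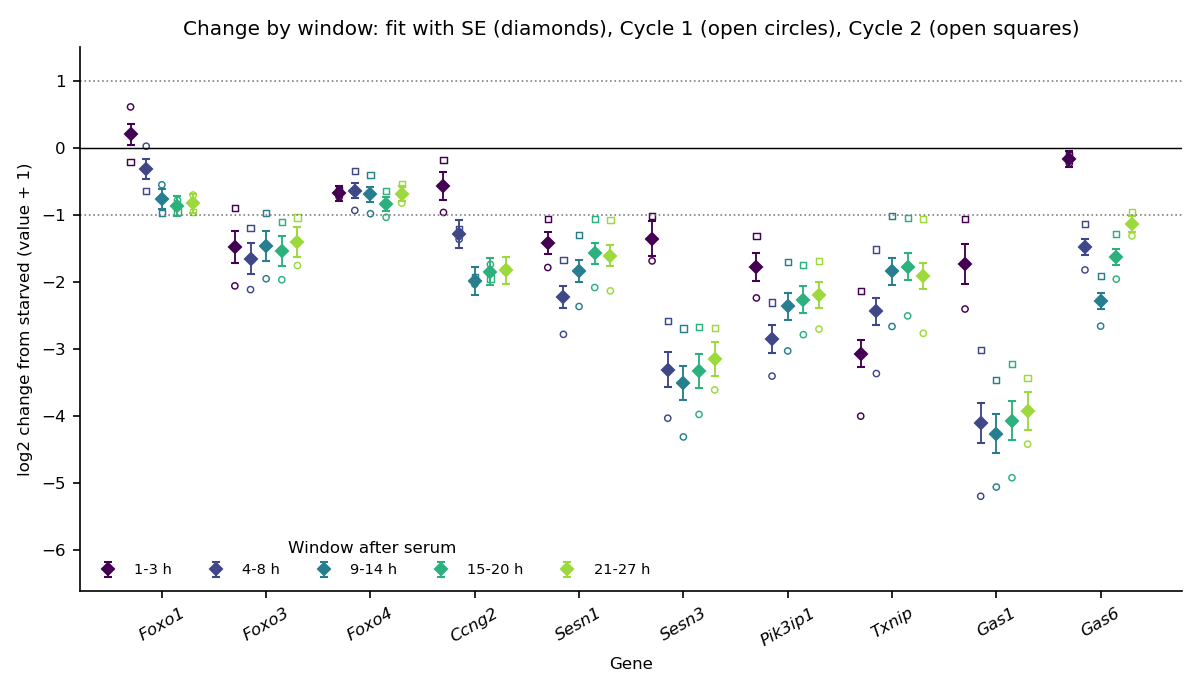
The plot gives the log2 change of each gene from starved cells in the 5 windows, as the limma estimate with its SE (diamonds), with the Cycle 1 (open circles) and Cycle 2 (open squares) estimates beside it and dotted lines at a 2-fold change. Gas1 and Sesn3 lie deepest from 4-8 h on, at about -4.10 and -3.31. The limma estimates of Foxo4 and Foxo1 stay above the lower dotted line in every window, while the Cycle 1 estimate of Foxo4 is -1.04 at 15-20 h.

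Foxo3, which lies on chr10:41901647-41996561 (NCBIM37, - strand), fell the most of the 3 factors. In Cycle 1 its normalised read count was 162 and 202 in the starved libraries. It was then between 21.0 and 105 at 1-3 h (median 27.4, 5 libraries) and between 23.2 and 57.2 at 4-8 h (median 39.4, 9 libraries). In Cycle 2 the starved values were 119 and 157, and the 4-8 h values ran from 51.4 to 70.5 with a median of 56.2. The starved and 4-8 h values did not overlap in either Cycle. The log2 change was -1.48 ± 0.23 (SE) at 1-3 h with a limma adjusted p of 2.29e-06, and -1.66 ± 0.23 at 4-8 h with an adjusted p of 2.58e-07. It stayed between -1.54 and -1.40 in the later windows. Of the 91 libraries after serum, 55 of 61 in Cycle 1 and 19 of 30 in Cycle 2 were below 0.5 of the starved mean.

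Foxo4, on chrX:98449867-98456212 (+ strand), moved in the same direction by less. Its starved values were 395 and 336 in Cycle 1 and 316 and 270 in Cycle 2. At 3 h it stood at 153 in Cycle 1 and 139 in Cycle 2, the low point of the Cycle 2 course. The windows gave log2 changes between -0.64 and -0.84, the largest being -0.84 ± 0.11 at 15-20 h with a limma adjusted p of 6.84e-08. Each window passed the p threshold and none reached a 2-fold change.

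Foxo1, on chr3:52072259-52154031 (+ strand), took a different course in the early hours. In Cycle 1 it stood at 332 and 369 before serum, 243 at 1 h and 577 at 1.5 h. It peaked with 814 at 2 h, gave 713 at 2.5 h, and was back at 392 by 4 h. In Cycle 2 the values at 1.5 h, 2 h and 2.5 h were 290, 361 and 423 beside starved values of 372 and 443, and none was above the higher starved value. A peak as high as 2.32 times the starved mean was therefore seen in Cycle 1 alone. In Cycle 2 the 2.5 h value was the highest after serum, at 1.04 times the starved mean, and the value was 316 by 4 h. The change at 1-3 h was 0.61 in Cycle 1 and -0.21 in Cycle 2 on the log2 scale, and this difference had a limma adjusted p of 0.0292. From 9-14 h on both Cycles were low, and the combined change was -0.76 ± 0.15, -0.87 ± 0.15 and -0.83 ± 0.14 in the last 3 windows, with limma adjusted p of 3.79e-05, 5.76e-06 and 7.43e-06 and less than a 2-fold change in each.

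**Figure D2:**
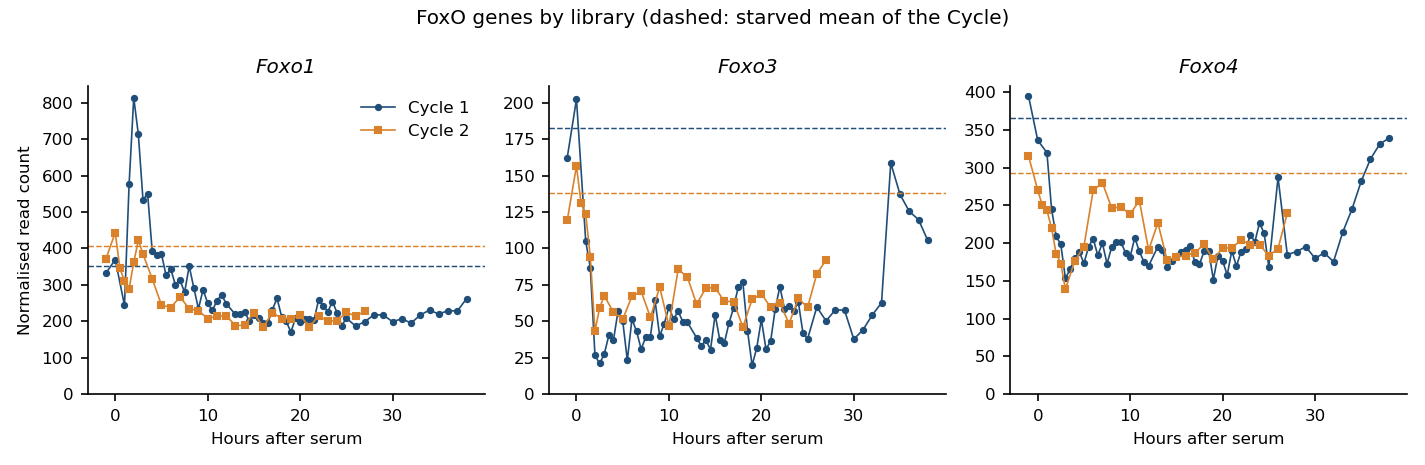
The panels show the normalised read count of Foxo1, Foxo3 and Foxo4 in every library against hours after serum, with Cycle 1 as circles, Cycle 2 as squares and the starved mean of each Cycle as a dashed line. Foxo1 reaches 814 at 2 h in Cycle 1 and 361 at the same hour in Cycle 2. Foxo3 lies below its dashed lines from 2 h to 27 h in both.

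Ccng2, on chr5:93696283-93705257 (+ strand), encodes cyclin G2, an unconventional cyclin that is high in resting cells and restrains the cell cycle. Its starved values were 406 and 365 in Cycle 1 and 612 and 528 in Cycle 2. At 2 h it stood at 175 in Cycle 1 and 518 in Cycle 2. The change at 1-3 h in Cycle 2 minus that in Cycle 1 was 0.79 ± 0.37 on the log2 scale. This difference did not pass the threshold (limma adjusted p of 0.204). By 9-14 h Cycle 1 ran from 80.4 to 125 (median 96.8, 10 libraries) and Cycle 2 from 118 to 188 (median 145, 6 libraries), each far below its own starved range. The combined log2 change was -0.57 ± 0.21 at 1-3 h (limma adjusted p of 0.0217, under 2-fold), -1.29 ± 0.21 at 4-8 h (2.89e-06) and -1.99 ± 0.21 at 9-14 h (6.01e-10). The first hour at which a library and the next one were below 0.5 of the starved mean was 2 h in Cycle 1 and 5 h in Cycle 2. In Cycle 1 the values at 3.5 h and 4 h (221 and 218) were above this level again, and 157 at 4.5 h was below it. The hours of a lasting fall were thus closer than this rule gives.

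Sesn1 and Sesn3 encode sestrins, stress-induced proteins that restrain mTORC1 signalling. Sesn1, on chr10:41530380-41628230 (+ strand), had starved values of 365 and 366 in Cycle 1 and 170 and 165 in Cycle 2. It reached its lowest value at 6 h in both courses, 37.8 in Cycle 1 and 38.4 in Cycle 2. The levels of the Cycles thus differed before serum and met after it. Its log2 change was -1.42 ± 0.16 at 1-3 h and -2.23 ± 0.16 at 4-8 h, with limma adjusted p of 7.01e-09 and 2.00e-13. The Sesn1 row is a mean over transcripts, since its values were not whole reads.

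Sesn3, on chr9:14080745-14130582 (+ strand), fell further. Its starved values of 222 and 325 in Cycle 1 and 129 and 158 in Cycle 2 gave way to 6.38 to 28.2 (median 17.6, 9 libraries) and 11.4 to 30.0 (median 26.8, 5 libraries) at 4-8 h. The starved and 4-8 h ranges did not overlap. The log2 change was -1.35 ± 0.26, -3.31 ± 0.26, -3.50 ± 0.25, -3.32 ± 0.25 and -3.15 ± 0.25 over the windows, and the limma adjusted p was 4.47e-05 in the first and at most 1.20e-12 in the others. At 9-14 h the gene was at 0.0883 of its starved level.

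Pik3ip1, on chr11:3230404-3242974 (+ strand), encodes an inhibitor of PI3K, the kinase that acts upstream of Akt and FoxO. It stood at 346 and 329 in the starved libraries of Cycle 1 and at 210 and 162 in those of Cycle 2. It was first below 0.5 of the starved mean in consecutive libraries at 1.5 h in both Cycles, and 58 of 61 libraries after serum in Cycle 1 and 26 of 30 in Cycle 2 were below it. It ran from 21.3 to 38.3 (median 29.2) at 4-8 h of Cycle 1 and from 30.0 to 45.2 (median 34.8) at 4-8 h of Cycle 2. The log2 change was -1.78 ± 0.21 at 1-3 h and -2.85 ± 0.21 at 4-8 h, with limma adjusted p of 9.06e-09 and 1.47e-13, and -2.20 ± 0.20 at 21-27 h.

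Txnip, on chr3:96361880-96365806 (+ strand), encodes an arrestin-like protein that binds thioredoxin and limits glucose uptake, and it was the first of the 10 genes to drop. In Cycle 1 it stood at 6628 and 4945 before serum and at 800.1 by 1 h, with 293 next and a low of 272 at 2.5 h. In Cycle 2 it stood at 2954 and 2370 before serum and at 1572 by 0.5 h, then 854 at 1 h, and its lowest value was 455 at 2 h. It was first below 0.5 of the starved mean in consecutive libraries at 1 h in both Cycles, with 61 of 61 libraries after serum below it in Cycle 1 and 25 of 30 in Cycle 2. The log2 change was -3.07 ± 0.21 at 1-3 h (limma adjusted p of 4.92e-14), -2.44 ± 0.21 at 4-8 h (4.75e-12) and -1.84 ± 0.20 at 9-14 h (1.80e-09), so the early trough was the deepest point and the later level a plateau. That plateau was 904 ± 41.1 (SD, n = 10) at 9-14 h of Cycle 1 and 1309 ± 51.4 (SD, n = 6) at 9-14 h of Cycle 2. Gm15441 is annotated on the opposite strand across the Txnip locus (chr3:96359688-96370724), and reads of both strands were counted, so reads of the overlapping exons cannot be told apart.

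Gas1, on chr13:60275766-60278726 (- strand), encodes a membrane protein that blocks entry into S phase when overexpressed, and it showed the deepest fall. Its starved values were 7081 and 7503 in Cycle 1 and 3467 and 3716 in Cycle 2. It was still 6449 at 1 h in Cycle 1 and 3323 at 1 h in Cycle 2, then 1418 and 1667 at 2 h and 267 and 718 at 3 h. At 4-8 h it ran from 151 to 274 (median 184, 9 libraries) in Cycle 1 and from 386 to 584 (median 427, 5 libraries) in Cycle 2, with no overlap between the Cycles or with the starved values. The log2 change was -1.74 ± 0.30, -4.10 ± 0.30 and -4.26 ± 0.29 in the first 3 windows, with limma adjusted p of 9.45e-06, 1.73e-13 and 5.21e-14. At 9-14 h the gene was at 0.0522 of its starved level.

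Gas6, on chr8:13465374-13494535 (- strand), encodes a secreted ligand of the receptor kinases Axl, Tyro3 and Mertk, and it was the slowest of the falling genes. Its starved values were 5776 and 5605 in Cycle 1 and 5159 and 5677 in Cycle 2, and at 1 h it stood at 6460 and 5915. It was first below 0.5 of the starved mean in consecutive libraries at 4 h in Cycle 1 and 6 h in Cycle 2, and 53 of 61 libraries after serum in Cycle 1 and 16 of 30 in Cycle 2 were below it. The lowest values were 787 at 11 h in Cycle 1 and 1344 at 12 h in Cycle 2. The medians at 21-27 h were 2204 and 2797. The log2 change was -0.17 ± 0.12 at 1-3 h (limma adjusted p of 0.236), -1.48 ± 0.12 at 4-8 h (2.52e-12), -2.29 ± 0.12 at 9-14 h (4.23e-17) and -1.13 ± 0.12 at 21-27 h (3.92e-10).

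**Figure D3:**
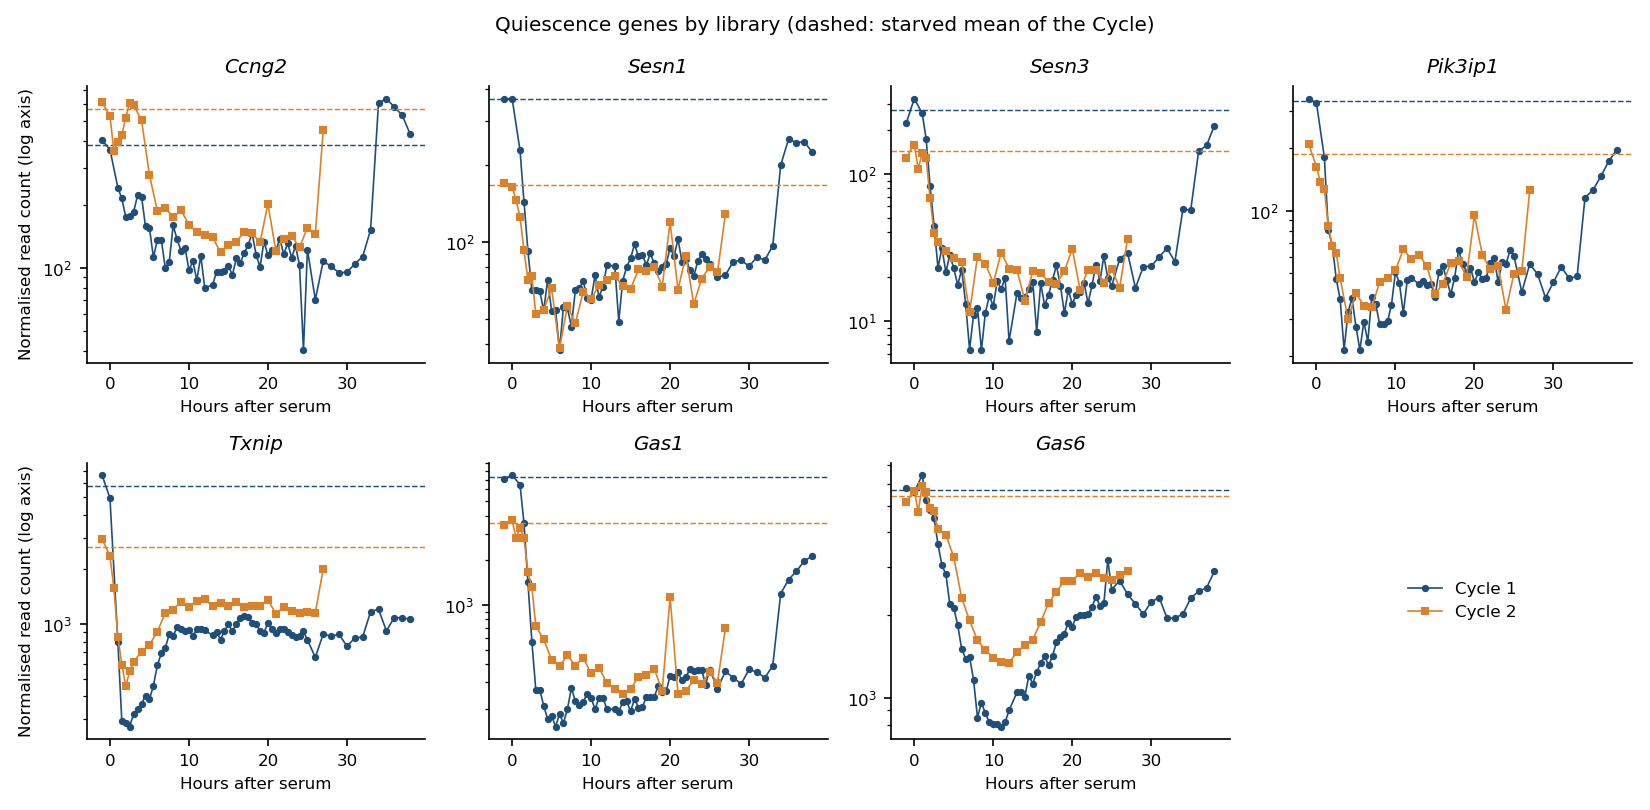
The panels show the normalised read count (log axis) of Ccng2, Sesn1, Sesn3, Pik3ip1, Txnip, Gas1 and Gas6 in every library against hours after serum, with Cycle 1 as circles, Cycle 2 as squares and the starved mean of each Cycle as a dashed line. Txnip has its low point near 2 h, Sesn1 at 6 h and Gas6 at 11 h to 12 h, and most panels turn up after 33 h of Cycle 1.

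By the rule of a value below 0.5 of the starved mean of the same Cycle, 664 of the 910 values of the 10 genes after serum (73%) were low, against 23.1% of all gene values. The order in which the genes first reached this level in consecutive libraries ran from Txnip at 1 h in both Cycles, through Pik3ip1 at 1.5 h in both, to Gas6 at 4 h in Cycle 1 and 6 h in Cycle 2. Such a crossing took a library and the next one below this level, and a gene could rise above it again later. Foxo3, Sesn1 and Gas1 reached this level at 1.5 h in Cycle 1 and 2 h in Cycle 2, which is 1 sampling step apart. Foxo4 reached it at 3 h in Cycle 1 and not in consecutive libraries of Cycle 2. Foxo1 reached it at 13 h in Cycle 2 and not in consecutive libraries of Cycle 1, where its 2 h and 2.5 h values were the only ones of the 910 above 2 times the starved mean.

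The later course was described by comparing 21-27 h with 4-8 h. The window of 4-8 h was not the low point of every gene. Txnip was lowest at 2.5 h in Cycle 1 and 2 h in Cycle 2, and Gas6 at 11 h and 12 h. The mean of Gas6 went from 891 at 9-14 h to 2324 at 21-27 h in Cycle 1 and from 1435 to 2792 in Cycle 2. No member was called in either direction by limma or by edgeR, against 9.66% of all genes that fell and 6.37% that rose. With no fold minimum, 2 members were lower at 21-27 h and 4 were higher. The lower ones were Foxo1, at -0.52 ± 0.11, and Ccng2, at -0.54 ± 0.15, with limma adjusted p of 7.07e-05 and 0.00187. The higher ones were Sesn1 at 0.62 ± 0.11, Pik3ip1 at 0.66 ± 0.14, Txnip at 0.53 ± 0.14 and Gas6 at 0.34 ± 0.08, with limma adjusted p of 1.73e-05, 0.000184, 0.00188 and 0.000676.

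The Cycles agreed in direction for every member called and differed in size. A term for the difference between the Cycles passed an adjusted p of 0.05 for 2 of 10 members at 1-3 h, beside 6.84% of all genes. In the later windows it did so for 8, 7, 6 and 4 members, beside 20.9%, 26.4%, 28.6% and 27.4% of all genes. For Foxo1 the change was lower in Cycle 2. For Foxo4, Sesn1, Sesn3, Pik3ip1, Txnip, Gas1 and Gas6 it was the smaller fall in Cycle 2. The starved levels themselves differed. The starved mean of Cycle 1 was 2.18 times that of Cycle 2 for Sesn1, 2.17 times for Txnip, 2.03 times for Gas1, 1.91 times for Sesn3 and 1.81 times for Pik3ip1, whereas over 9112 well measured genes the median ratio was 0.984 and 2.61% of genes were at or above 2. It was 1.32 times for Foxo3, 1.25 times for Foxo4 and 1.05 times for Gas6. Ccng2, at 0.676 times, and Foxo1, at 0.86 times, were lower in Cycle 1. At 4-8 h the Cycles stood closer for Sesn1 (means 54.8 and 52.6) and Pik3ip1 (30.5 and 36.9), while Gas1 had turned round (194 and 449) and so had Txnip (596 and 945).

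**Figure D4:**
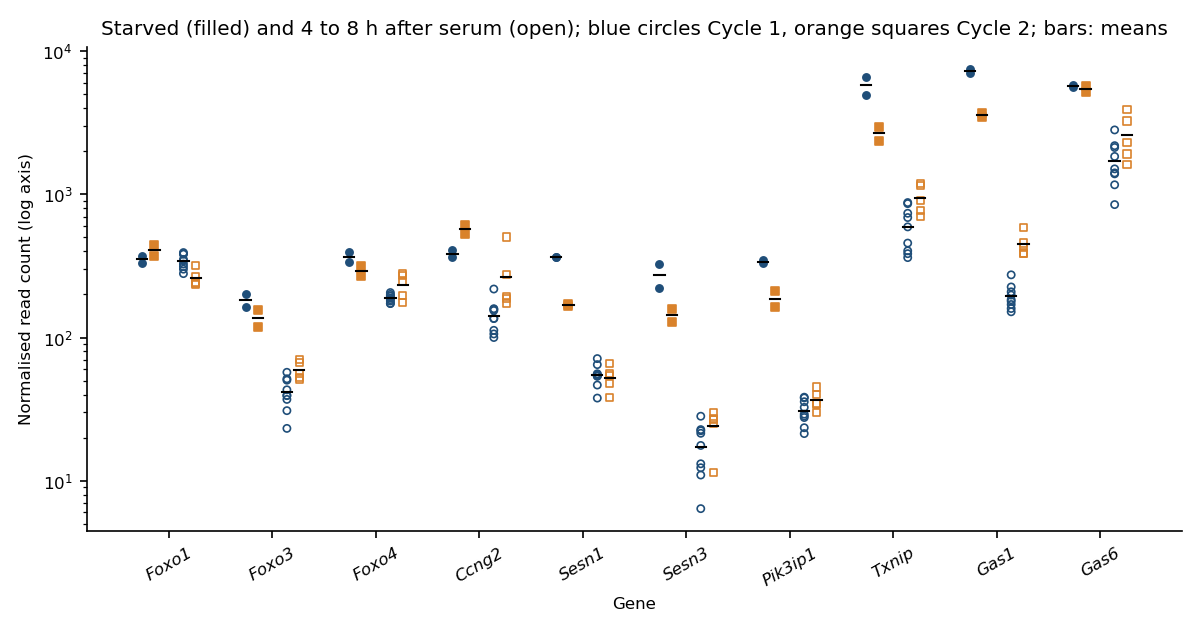
The points are the normalised read counts (log axis) of each gene in the starved libraries (filled, 2 per Cycle) and at 4-8 h after serum (open, 9 in Cycle 1 and 5 in Cycle 2), with Cycle 1 in blue circles, Cycle 2 in orange squares and bars at the means. Starved Gas1 lies at 7081 to 7503 in Cycle 1 and 3467 to 3716 in Cycle 2, and at 4-8 h the order of the Cycles is turned round. Levels of different genes are not comparable, since values are not per length.

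The end of Cycle 1 was sampled in 1 library an hour and has no counterpart in Cycle 2, so it is described without a test. The split between 33 h and 34 h was chosen after seeing these values. In 8 of the 10 genes every value at 34-38 h (5 libraries) was above every value at 28-33 h (6 libraries), against 11.8% of all genes, and Txnip and Gas6 overlapped. Ccng2 went from 152 at 33 h to 607 at 34 h and 639 at 35 h, above both starved values of Cycle 1. Gas1 went from 389 at 33 h to 1189 at 34 h and 2131 at 38 h. Sesn3 took more hours, since it was 25.3 before the step, 57.3 after it and 213 by 38 h. Foxo3 went from 62.6 to 159, Sesn1 from 97.0 to 201, and Pik3ip1 from 48.2 to 115 within that hour. The mean at 34-38 h was 5.08 times that at 28-33 h for Ccng2, 5.09 times for Sesn3, 4.97 times for Gas1, 3.22 times for Pik3ip1, 2.71 times for Sesn1, 2.47 times for Foxo3, 1.59 times for Foxo4 and 1.12 times for Foxo1. For Txnip it was 1.20 times and for Gas6 1.15 times, and over all well measured genes the median was 1.03 times. At 38 h the genes stood at 112% (Ccng2), 92.7% (Foxo4), 77.8% (Sesn3), 74.7% (Foxo1), 61.6% (Sesn1), 58.1% (Pik3ip1), 57.8% (Foxo3), 50.8% (Gas6), 29.2% (Gas1) and 18.4% (Txnip) of the starved mean. The 34 h library differed from its neighbours by a median of 0.11 (log2) over all well measured genes. The 33 h and 35 h libraries differed by 0.147 and 0.16, and the median over the libraries was 0.0905. Depth ran from 8300462 to 11925479 reads at 28-33 h and from 5105646 to 12040002 at 34-38 h. The part of these in the result was not tested.

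**Figure D5:**
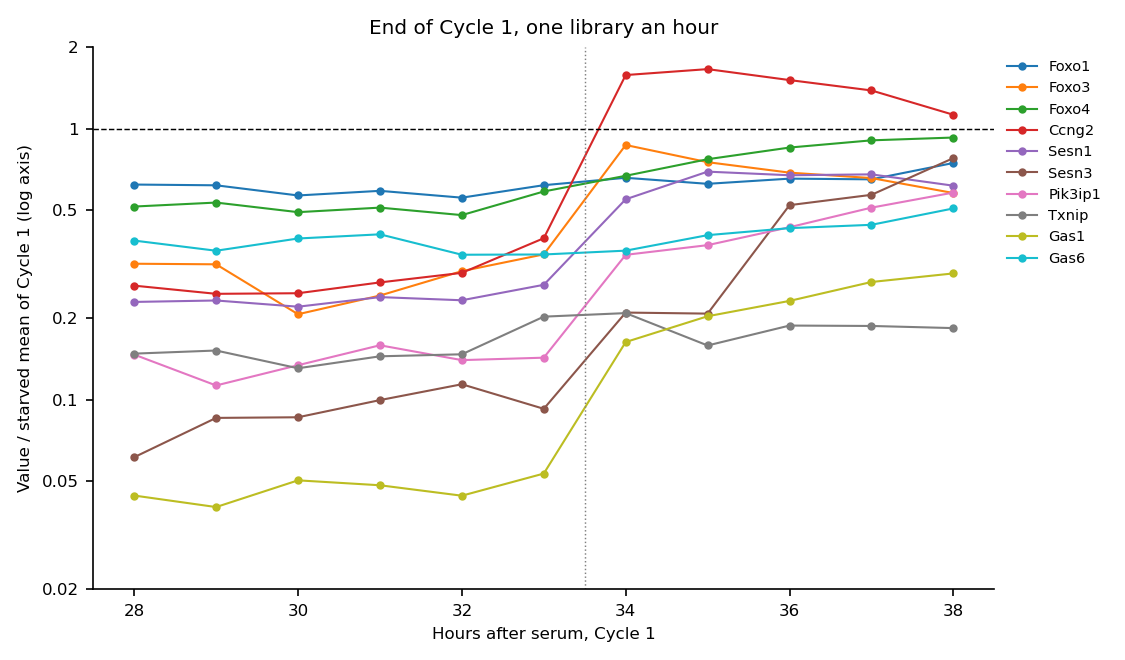
The lines give the value of each of the 10 genes divided by its starved mean of Cycle 1 (log axis) from 28 h to 38 h of that Cycle, with the dashed line at the starved level and the dotted line between 33 h and 34 h. Ccng2 crosses the starved level at 34 h. Gas1 climbs from a normalised read count of 389 at 33 h to 2131 at 38 h and stays below its starved level. Txnip runs nearly flat.

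Several of the 10 genes were out of line in single libraries of Cycle 2. At 20 h, Gas1 was 1129, against 261 at 19 h and 251 at 21 h. Pik3ip1 was 94.8 (48.1 and 61.4 beside it), Sesn1 120 (67.0 and 65.2) and Ccng2 201 (132 and 120). These 4 genes were more than 1.5 times both neighbours, which held for 1.12% of the well measured genes. At 27 h, the last library, Ccng2 was 451 against 145 at 26 h, Txnip 2006 against 1157, Gas1 696 against 299, Pik3ip1 125 against 51.3, Sesn1 129 against 76.1 and Sesn3 36.2 against 16.8. These 6 genes were more than 1.5 times both preceding hours, which held for 0.911% of the well measured genes. Leaving out these libraries and that at 26 h of Cycle 1 left 8 of 10 members called as falling at 15-20 h and at 21-27 h, and Gas1 went from -4.07 to -4.19 at 15-20 h.

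Genes whose course over the 91 libraries after serum lay nearest to each member were sought among 9110 well measured genes by the mean absolute difference of the log2 change from the starved mean of the same Cycle, as a description with no test. The libraries share their starved reference and their depth. For Txnip the nearest was Gm15441, the antisense neighbour described above, at 0.196, followed by Pid1 at 0.447 and Phactr2 at 0.49. Foxo4 had close matches in Serinc4, Zfp362 and Mtmr3 at 0.163, 0.163 and 0.164. Foxo1 lay nearest to Glce (0.214), Ero1l (0.239) and Ldlrad4 (0.239), and Foxo3 to Bicc1 (0.28), Tnrc6b (0.308) and Vps13b (0.325). Ccng2 lay nearest to Vcan (0.344), Eno2 (0.387) and Pdgfra (0.389), and Sesn1 to Arhgap28 (0.271), Acvr2a (0.282) and Syt11 (0.296). Pik3ip1 lay nearest to Zfp521 (0.337), Nfib (0.388) and Zfp395 (0.433), and Gas6 to Aoc3 (0.282), Siae (0.327) and Limch1 (0.327). The deep courses had no near match. Sesn3 was 0.533 from Cdon, 0.566 from Igsf10 and 0.57 from Figf, and Gas1 was 0.55 from Igsf10, 0.642 from Zcchc5 and 0.743 from Ldb2.

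In the insulin, PI3K and Akt branch 22 genes were followed, with Mtor, Rptor, Tsc1 and Tsc2 among them. Of the 22 genes, 17 were called in no window, 3 fell and 2 rose. Over all genes, 56.2% were called in no window, 30.5% fell in at least 1 window and rose in none, 12.3% rose in at least 1 and fell in none, and 0.994% were called in both directions. The median log2 change of the 22 genes was -0.36 at 1-3 h and -0.23 at 4-8 h, beside -0.26 and -0.23 over all genes. Irs1, the insulin receptor substrate, fell by 2.55 at 1-3 h and 2.89 at 4-8 h on the log2 scale (SE 0.15 in both), with limma adjusted p of 3.45e-15 and 6.09e-17. Pik3r1, the main regulatory subunit of PI3K, fell in all 5 windows, with -1.88 ± 0.15 at 4-8 h (limma adjusted p of 1.80e-12), and Pik3r3 also fell. Sgk1, a kinase that like Akt phosphorylates FoxO, rose by 2.04 ± 0.18 at 1-3 h (limma adjusted p of 2.88e-11) and 1.44 ± 0.18 at 4-8 h. Pik3cb, a catalytic subunit, rose from 4-8 h on, with 1.32 ± 0.16 at 4-8 h (limma adjusted p of 1.76e-08). Among 18 protein partners of FoxO, which bind, modify or export it, 17 were called in no window. The arginine methyltransferase Prmt1 rose at 21-27 h by 1.00 ± 0.14 (limma adjusted p of 2.00e-07). Its log2 change there was 1.46 in Cycle 1 and 0.54 in Cycle 2, the latter under 2-fold.

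Of 31 other genes described as FoxO targets, 11 fell in at least 1 window, 2 rose, 1 was called in both directions and 17 were called in none, beside the shares of 30.5%, 12.3%, 0.994% and 56.2% over all genes. At 9-14 h, 9 fell and 1 rose, with a median of -0.48 beside -0.14 over all genes. Gadd45a, a DNA damage and arrest gene, fell in all 5 windows, from -1.16 ± 0.17 at 1-3 h to -2.49 ± 0.16 at 21-27 h (limma adjusted p of 7.79e-07 and 1.55e-14). Klf15, a metabolic transcription factor, fell by 2.77 at 1-3 h on the log2 scale (SE 0.25, limma adjusted p of 2.94e-11). The muscle ubiquitin ligase Trim63 fell by 2.99 at 9-14 h on the log2 scale (SE 0.39, limma adjusted p of 6.67e-08) from starved means of only 20.7 and 16.2. The mitophagy gene Bnip3 fell from 4-8 h on, with -1.07 in Cycle 1 and -3.62 in Cycle 2 at 9-14 h, and its starved means were 112 and 613. Against this direction, Cited2, a transcriptional coregulator, rose from 4-8 h on and Cdkn1a, the p21 cell cycle inhibitor, rose at 1-3 h by 1.49 ± 0.11 (limma adjusted p of 4.78e-13). Bcl2l11, which encodes the death protein Bim, rose at 1-3 h by 1.53 ± 0.21 and fell at 9-14 h with -1.08 ± 0.20 (limma adjusted p of 2.09e-07 and 2.99e-05). In the late hours of Cycle 1, 16 of these 31 genes stood above 28-33 h without overlap and 0 below, beside 11.8% above and 5.97% below over all genes, among them Rbl2 at 2.97 times, Mxi1 at 2.58 times and Bcl6 at 2.42 times. The other lists gave 6 above and 0 below of the 22 genes of the insulin branch, 1 above and 4 below of the 18 protein partners, 2 above and 0 below of the 10 growth arrest genes and 5 above and 1 below of the 12 relatives described next.

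Of 10 further growth arrest-specific genes and Gas6 receptors, 5 fell in at least 1 window, 1 rose and 4 were called in none (30.5%, 12.3% and 56.2% over all genes). Gas2, a cytoskeletal protein, fell from 4-8 h on and reached -2.94 ± 0.18 at 21-27 h (limma adjusted p of 1.26e-15). Pmp22, a myelin protein also known as Gas3, fell by 2.48 at 4-8 h on the log2 scale (SE 0.15, limma adjusted p of 1.21e-15). Gas7 fell only from 9-14 h, with -0.02 ± 0.13 at 4-8 h and -2.09 ± 0.13 at 21-27 h (limma adjusted p of 0.881 and 2.22e-15). The receptor genes went apart, as Mertk fell by 1.36 at 15-20 h on the log2 scale (SE 0.26, limma adjusted p of 2.76e-05) and Axl rose at 21-27 h by 1.14 ± 0.07 (limma adjusted p of 5.25e-16).

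Of 12 relatives and partners of Txnip, the sestrins, cyclin G2 and FoxO, 3 fell, 2 rose and 7 were called in no window, beside the same all-gene shares. Txnrd1, the reductase of the thioredoxin that Txnip binds, rose in all 5 windows, by 2.51 ± 0.13 at 1-3 h (limma adjusted p of 1.11e-16), and Txn1 rose at 15-20 h and 21-27 h. The arrestin relatives Arrdc3 and Arrdc4 fell from 4-8 h on, with -1.21 ± 0.21 and -1.54 ± 0.17 in that window (limma adjusted p of 8.18e-06 and 1.13e-09). Foxo6, the fourth FoxO gene, was low at starved means of 35.5 and 13.3 and fell at 21-27 h with -1.39 ± 0.30 (limma adjusted p of 0.000173). Its log2 change in that window was -2.17 in Cycle 1 and -0.60 in Cycle 2, the latter under 2-fold. Sesn2, the third sestrin, was not called in any window, its largest change being -0.80 ± 0.17 at 9-14 h with a limma adjusted p of 0.000109.

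Cell type markers were read beside these results. All 10 fibroblast markers were present, with Col1a1 never below 39357, and 5 of them (Col1a2, Col3a1, Dcn, Lum and Pdgfra) fell in the windows from 9-14 h on. Vim rose at 1-3 h by 1.05 ± 0.08 on the log2 scale (limma adjusted p of 2.87e-12), and Thy1, not called, was at 0.83 ± 0.17 at 21-27 h. The summed level of all 10 was 403611 to 569390 in starved libraries and 193203 to 232322 at 21-27 h. Of 5 skeletal muscle markers, 4 (Myod1, Myog, Myh3 and Ckm) fell in every window, and the sum of the 5 ran from 1071 to 1762 in starved libraries, from 346 to 1172 at 1-3 h and from 829.9 to 1479.8 at 21-27 h, which overlaps the starved range. Des, called in no window, had a median of 815 over all libraries, and Ckm was at 0 in 29 libraries and Myod1 in 11. All 5 epithelial markers fell at 21-27 h (Cldn4 after a rise at 1-3 h), where the sum was 14.6 to 79.2 beside 83.9 to 230.0 in starved libraries, and 3 of 5 endothelial markers did so too, with 56.3 to 115 beside 213 to 282. The 5 macrophage and blood markers summed to 260 to 619 in starved libraries and 158 to 517 at 21-27 h, and the 5 neural markers to 208 to 350 and 105 to 290. Among the former Csf1r rose from 4-8 h to 15-20 h and Ptprc fell at 21-27 h. Among the neural markers Dcx fell in all 5 windows, Elavl3 rose at 1-3 h and Elavl4 rose from 9-14 h on. Of 5 red cell markers 1 was in the table, Alas2, at no more than 6.24. The part of these markers in the falls of the 10 genes was not tested.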

How the data were processed

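RNA from MEFs was sequenced in 2 time courses of single-end reads from a stranded mRNA kit. Per the labels and the study's methods, the authors aligned reads to mm9 with STAR and counted exon reads of either strand with HOMER. The deposited signal is a normalised read count, scaled by the authors to a common library total, with transcripts averaged where a symbol had several and low rows removed by a criterion not given in the sources used here. Of 96 columns, 95 matched a library and 1 was not used. limma 3.58.1 (R 4.3.3) was fitted to log2(value + 1) over all 15895 rows, with 1 coefficient for the 4 starved libraries, 1 for each of 29 shared hours and Cycle as a block (62 libraries, 31 residual degrees of freedom), and p-values were adjusted by Benjamini-Hochberg. Fold changes on this scale understate those of low genes. Neighbouring hours share a course, so SEs of window means may be too small. In the labels the replicate number is the Cycle. Over 465 pairs of hours the differences between the Cycles correlated across genes with a median r of 0.424, and 62 pairs were at or under 0.1. Whole reads were recovered for 94.2% to 96.2% of low values (tolerance 0.1 read), and edgeR 4.0.16 was run on 12568 rows. On simulated data for 1-3 h (15895 genes), 97 of 100 genes changed 2.5-fold and 100 of 100 changed 4-fold were recovered. The simulated libraries had independent noise and a change equal at all hours and in both Cycles. They could not show whether SEs are too small where neighbouring hours share a course. The 10 genes and the pathway and marker lists were chosen with earlier results of these data known. Named were the 10 genes, the called list genes of largest size (at most 4 a list), Foxo6, Sesn2 and the 3 nearest courses, and further list genes named were chosen after their values were seen. Alternatives were scaling, pseudocount, a low-value filter, edgeR, the block, single starved libraries and the Cycles.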

Additional observations from a re-analysis of the deposited data

Results flagged for a closer look

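The change after serum differed between the Cycles by limma's adjusted p in 27 of 50 tests of a gene and window, and the values are the change in Cycle 2 minus that in Cycle 1 on the log2 scale. The change of Foxo1 was lower in Cycle 2, with -0.82 at 1-3 h and -0.67 at 4-8 h. In the other genes that differed the fall was smaller in Cycle 2. Foxo4 gave 0.59 at 4-8 h and 0.58 at 9-14 h. Sesn1 gave 1.11, 1.06, 1.02 and 1.05 in the windows from 4-8 h to 21-27 h. Sesn3 gave 1.45, 1.62 and 1.31 in those from 4-8 h to 15-20 h. Pik3ip1 gave 1.10, 1.32, 1.04 and 1.01 from 4-8 h to 21-27 h. Txnip gave 1.87 at 1-3 h and then 1.85, 1.65, 1.46 and 1.70. Gas1 gave 2.18, 1.59 and 1.70 from 4-8 h to 15-20 h, and Gas6 gave 0.69, 0.74, 0.67 and 0.36 from 4-8 h to 21-27 h. The starved means of Sesn1, Txnip and Gas1 in Cycle 1 were 2.18, 2.17 and 2.03 times those in Cycle 2, and the part of the starved levels in these differences was not tested.

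In 18 of 130 groups of libraries of a gene, 1 library lay far from the others by Dixon's test on log2(value + 1), where chance gives about 1 in 20 (6.5). The last library of Cycle 2, at 27 h, was high for Foxo4 (240, others at 21-27 h 183 to 204), Ccng2 (451, others 120 to 155), Sesn3 (36.2, others 16.2 to 22.4), Txnip (2006, others 1140.5 to 1237) and Gas1 (696, others 251 to 353). The 20 h library of Cycle 2 was high for Ccng2 (201), Sesn1 (120), Sesn3 (30.9) and Gas1 (1129). The 26 h library of Cycle 1 was low for Ccng2 (70.4), Txnip (655) and Gas1 (273). Further values stood alone in Foxo1 at 38 h of Cycle 1 (262), Foxo3 at 18 h of Cycle 2 (46.0), Foxo4 at 19 h of Cycle 1 (152), Sesn3 at 7 h of Cycle 2 (11.4), and Txnip at 1 h (800.1) and 33 h (1171) of Cycle 1. Txnip at 1 h was on the way down to 272 to 320 in the later libraries of its window.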

How the results depend on the processing

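Without the block for the paired Cycles the members that fell numbered 6 at 1-3 h, 8 in each later window and 0 for 21-27 h against 4-8 h, so no count changed. Leaving out 1 Cycle or 1 starved library gave 3 to 6 at 1-3 h, 8 to 8 at 4-8 h, 7 to 8 at 9-14 h, 8 to 9 at 15-20 h, 7 to 8 at 21-27 h and 0 to 0 for 21-27 h against 4-8 h, and 0 rose throughout. A single Cycle leaves 1 library an hour, so these refits took all libraries of a window as replicates. The spread then included the change from hour to hour within a window. Without Cycle 1, Foxo3 (-0.90 at 1-3 h, -0.98 at 9-14 h), Sesn3 (-1.02) and Gas1 (-1.07) at 1-3 h and Gas6 (-0.95) at 21-27 h lost their calls, and without Cycle 2, Foxo4 gained one at 15-20 h (-1.01). With no fold minimum, 21-27 h against 4-8 h had 2 members that fell and 4 that rose. Pseudocounts of 5 and 0.1, a mean of at least 10, TMM, trend and robust options, single libraries as replicates and leaving out the libraries that stood apart (chosen after seeing the data) changed no member count of falls or rises. edgeR on recovered reads gave 5 at 1-3 h and 7 in each later window, since Sesn1 was not whole and not tested. No called direction turned. Of values not called, the sign turned for Foxo1 at 1-3 h (0.20, with -0.21 without Cycle 1 and 0.61 without Cycle 2), for Gas6 at 1-3 h (-0.17, with 0.059 by TMM and 0.075 by edgeR) and, for 21-27 h against 4-8 h, for Foxo4 (-0.04, with -0.19 and 0.10 without Cycle 1 and without Cycle 2), Sesn3 (0.16, with -0.10 and 0.32) and Gas1 (0.18, with -0.42 and 0.81). The 664 low values were 649 against 0 h alone and 670 against -1 h alone. Over all genes, falls at 1-3 h numbered 1870, against 1110 with TMM, 1025 with edgeR (12568 rows) and 925 without Cycle 1. Without Cycle 1 the falls were also 1937 of 2961 at 4-8 h, 1542 of 2646 at 9-14 h, 1631 of 2716 at 15-20 h and 1901 of 3022 at 21-27 h, and the rises 726 of 1107, 636 of 1081 and 570 of 1048 in the last 3 windows. Without Cycle 2 the rises were 1846 at 15-20 h and 1761 at 21-27 h. Requiring a mean of 10 left 1685, 1663 and 1872 falls in the last 3 windows and 1023 of 1536 for 21-27 h against 4-8 h, where a pseudocount of 5 left 981. With no fold minimum all 12 counts rose by over 1.5 times, as with 6232 falls at 1-3 h and 6286 at 21-27 h.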
